A study of Mus musculus with 6 samples.

Results

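The genes described here encode 10 secreted glycoproteins of the matricellular kind: tenascin C and tenascin X (Tnc, Tnxb), the thrombospondins (Thbs1, Thbs2, Thbs3, Thbs4 and Comp), the fasciclin-domain proteins periostin and TGFBI (Postn, Tgfbi), and Sparc. They were taken by name from the 49671 genes of the count tables, and all 10 were among the 15608 genes with enough reads to be tested. The data are RNA sequencing counts of 6 libraries of sorted mouse pancreatic tumour cells, 3 of a GFP fraction and 3 of a Tomato fraction. C57BL/6J hosts had received the pancreatic cancer line FC1199 in the pancreas at 8 weeks of age. Tumours were taken 4 weeks later, when the hosts were 12 weeks old. Rosa-mTmG; Fabp4-Cre was the genotype of all hosts: Cre, made where the Fabp4 promoter is active, switches a cell and its descendants from red Tomato to green GFP. That promoter is best known from fat cells and also works in some endothelial cells and macrophages. Cells carrying Podoplanin were sorted by colour, and the labels call GFP cells stellate cell-derived cancer-associated fibroblasts (CAFs) and Tomato cells CAFs of non-stellate origin. Total counts ran from 33378377 to 42154933 per library, and levels are given as TMM-scaled counts-per-million (CPM).

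Matricellular proteins are released into the extracellular matrix, where they bind collagen, growth factors and cell surface receptors more than they bear load. Most are low in resting adult tissue and rise in wounds, fibrosis and tumour stroma, with activated fibroblasts as a main source. Transforming growth factor beta (TGF-beta) raises several of them, Tgfbi being named for it, and thrombospondin 1 can in turn release TGF-beta from its latent form.

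Of the 10 genes, 8 were higher in GFP than in Tomato and 1, Tgfbi, was lower (edgeR quasi-likelihood test, adjusted p under 0.05). Over all genes tested, 13.1% were called higher, 15.7% lower and 28.9% in either direction. The largest difference was the fall of Tgfbi to 23.6 ± 7.26 CPM in GFP, against 168 ± 71.2 CPM in Tomato (SD, n = 3 each). The steepest rises were those of Comp and Thbs4, the cartilage and tendon thrombospondins, by log2 fold changes of 2.01 and 1.39. Postn was the gene that did not pass. In none of the 10 genes did the fractions overlap, which was also so for 48.6% of all genes tested. The median log2 fold change of the 10 genes was 0.84, beside 0.00 for all genes. The number called higher fell to 3 without GFP replicate 1 or without Tomato replicate 2, and to 5 without GFP replicate 2, without GFP replicate 3 or when fold changes were adjusted for the length and GC content of transcripts.

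**Figure D1:**
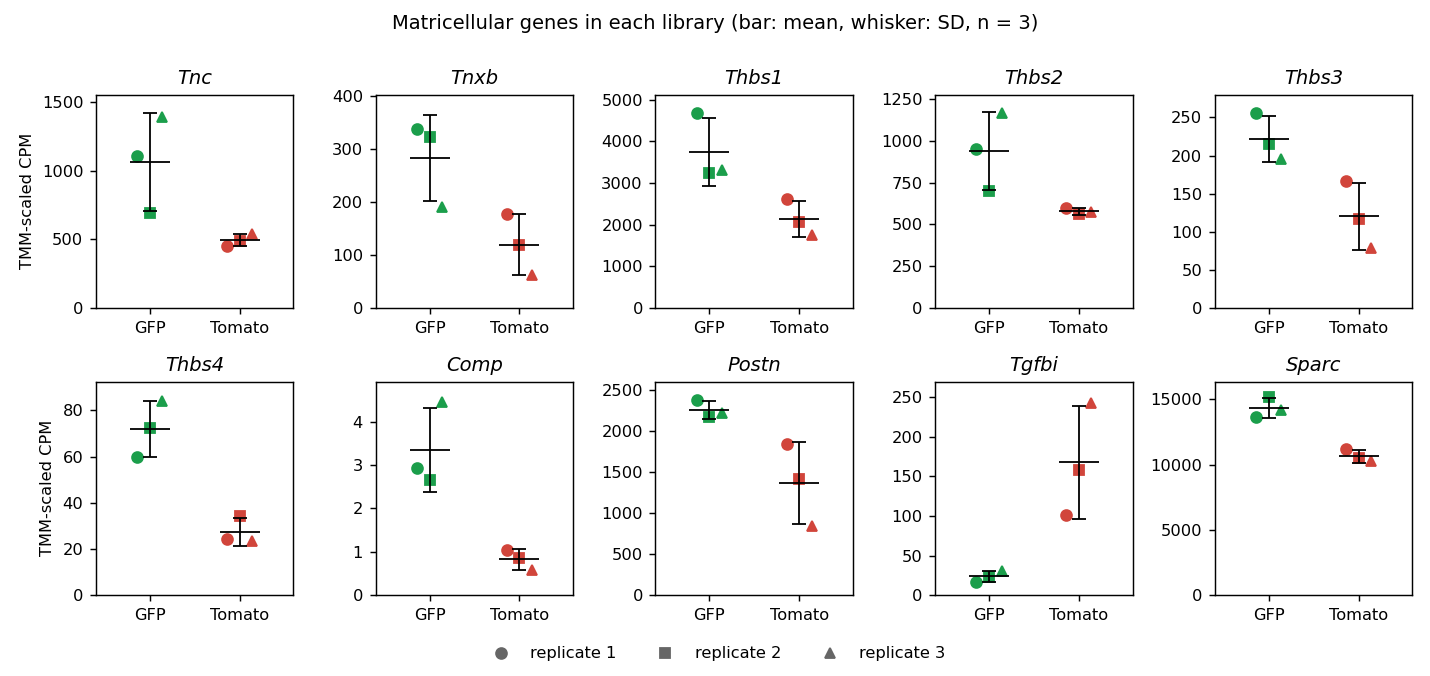
TMM-scaled CPM (y axis, from 0) of the 10 genes in the 3 GFP libraries, at left in each panel, and the 3 Tomato libraries; symbols mark the replicate number, bars the mean and whiskers the SD. Tgfbi lies between 16.6 and 31.1 CPM in GFP and between 101 and 243 CPM in Tomato, while the other 9 genes lie higher in every GFP library than in any Tomato library.

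What the libraries hold bears on all of these values. The 11 fibroblast markers, among them Col1a1, Dcn and Pdgfra, were all detected, with a summed level of 129836 to 144520 CPM in GFP and 63566 to 96598 CPM in Tomato. Most of that sum was Col1a1, Col1a2 and Col3a1. The 8 other markers summed to 12225 to 15640 CPM in GFP and 11313 to 14918 CPM in Tomato, and these ranges overlapped. All 9 macrophage markers were lower in GFP (summed 130 to 209 CPM, against 902 to 2273 CPM in Tomato). Of 8 mesothelial markers 7 were lower (146 to 166 CPM, against 1161 to 1451 CPM), and of 6 epithelial markers 5 were lower (47.5 to 57.7 CPM, against 382 to 444 CPM). The keratin genes Krt8 (mean 14.5 CPM in GFP, 171 in Tomato), Krt18 (16.4, 133) and Krt7 (10.9, 82.1) made up most of the epithelial sum. Epcam (4.94, 12.3) and Cdh1 (3.54, 11.9) were lower at small levels, and Cldn4 was not called. The mesothelial list also holds a keratin gene, Krt19, and which cells the keratin reads came from was not tested. Of 8 endothelial markers 7 were higher (246 to 388 CPM, against 66.0 to 100 CPM). Of 6 pericyte and smooth muscle markers 2 were higher and none lower, with a median log2 fold change of 0.69. Their sum was 96.5 to 158 CPM in GFP and 113 to 192 CPM in Tomato and followed the most abundant of them, Des (63.3 ± 17.3 against 119 ± 39.4 CPM, adjusted p = 0.0518). The 4 Schwann cell markers stayed under 4 CPM in sum in every library. Of the 6 libraries, Tomato replicate 3 had the highest macrophage sum and the lowest fibroblast sum, and without it 7 of the 10 genes were called higher. In bulk RNA of this kind, fewer cells that make a transcript and less of it per cell cannot be told apart.

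Tgfbi (ENSMUSG00000035493, chromosome 13, 56609523 to 56639562, plus strand, GRCm38) encodes a fasciclin-domain protein that binds collagens and integrins, and macrophages and epithelial cells are known to make it as well as fibroblasts. It had 16.6, 23.0 and 31.1 CPM in GFP replicates 1 to 3, against 101, 158 and 243 CPM in Tomato replicates 1 to 3. Every Tomato library thus stood more than 3-fold above every GFP library, although the Tomato libraries themselves spread widely. The log2 fold change was -2.83 ± 0.36 (SE, adjusted p = 0.00224), which is 7.12-fold higher in Tomato. Between libraries of equal replicate number the log2 differences were -2.62, -2.78 and -2.97. Among all genes tested, 424 fell by more. The call held in 12 alternative settings and in 6 fits that each left out a library, with log2 fold changes from -3.10 to -2.47.

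Like Tgfbi, the summed macrophage, mesothelial and epithelial markers were lower in GFP, while the summed endothelial markers were higher. The level of Tgfbi was 0.110 to 0.151 of the macrophage marker sum in GFP and 0.104 to 0.112 in Tomato, so that these ranges met narrowly. Against the mesothelial sum it was 0.114 to 0.187 in GFP and 0.0781 to 0.209 in Tomato. Against the epithelial sum, most of it from keratin genes, it was 0.349 to 0.538 in GFP and 0.265 to 0.547 in Tomato. Over Tomato replicates 1 to 3 the mesothelial ratio rose from 0.0781 to 0.209 and the epithelial ratio from 0.265 to 0.547. The macrophage ratio stayed between 0.104 and 0.112 there. Tgfbi, set against any of these 3 lists, thus overlapped between the fractions. Set against the fibroblast sum it did not, nor against the endothelial sum (0.0426 to 0.126 in GFP, 1.01 to 3.68 in Tomato). For the fibroblast sum, 77.3% of all genes tested did not overlap. That share was not counted for the macrophage, mesothelial, epithelial and endothelial sums. These ratios were chosen after the data were seen, and the part of these cells in the fall of Tgfbi was not tested.

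**Figure D2:**
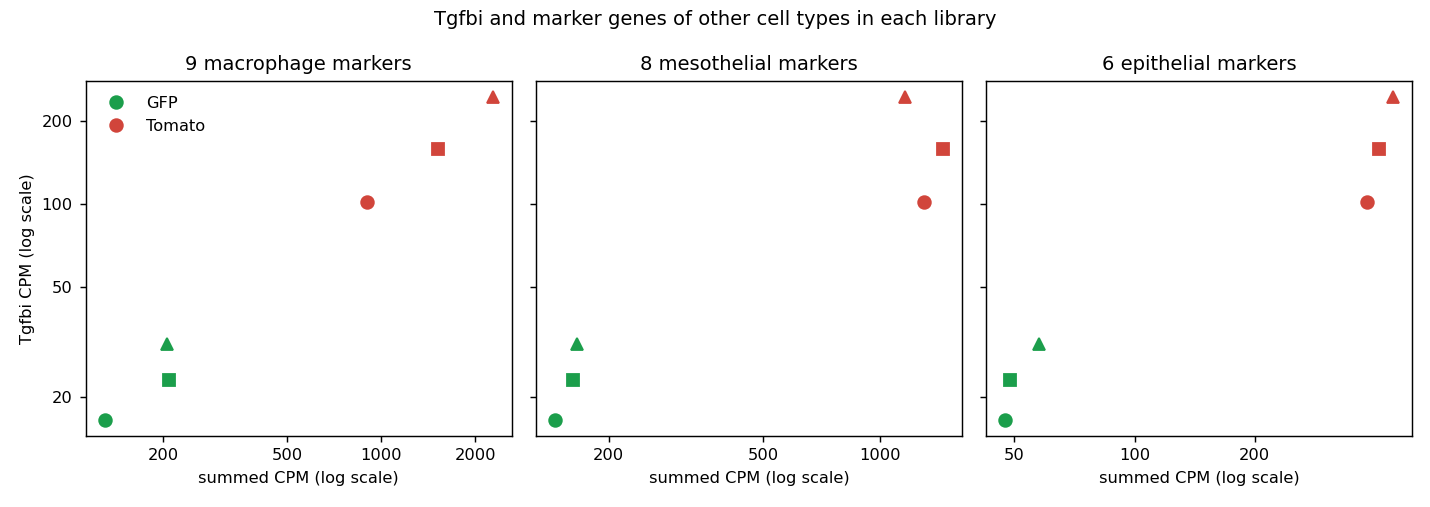
Tgfbi (y axis, CPM, log scale) against the summed CPM (x axis, log scale) of macrophage, mesothelial and epithelial markers in each library, with GFP in green, Tomato in red and the replicate number as circle, square or triangle. The 3 GFP libraries lie low on both axes and the 3 Tomato libraries high, and Tomato replicate 3 is highest for Tgfbi, macrophage and epithelial markers.

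Postn (ENSMUSG00000027750, chromosome 3, 54361109 to 54391037) encodes periostin, the closest relative of TGFBI in this group, which binds integrins and takes part in collagen cross-linking. It had 2375, 2165 and 2222 CPM in GFP and 1841, 1410 and 838 CPM in Tomato. The GFP libraries lay close together and above all Tomato libraries, of which replicate 3 was far lower than the others. Its log2 fold change of 0.73 ± 0.25 did not pass (adjusted p = 0.0619). A block for replicate number brought it past the threshold (0.80, adjusted p = 0.0129), as did the tests of DESeq2 (0.72, adjusted p = 0.00847) and limma-voom (0.80, adjusted p = 0.0474). Without Tomato replicate 3 it was 0.46 and passed (adjusted p = 0.0411), and without Tomato replicate 1 it was 0.99 (adjusted p = 0.00783). In the other 9 settings and 4 fits without a library it did not pass, among them the length and GC correction without the block (0.53, adjusted p = 0.139) and with it (0.58, adjusted p = 0.0597).

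Promoters are shown from RefSeq (build GRCm38.p6) for the relatives Tgfbi, called lower in GFP, and Postn, higher there without passing the threshold. That of Thbs4, whose rise held in every fit, is shown too. Each run is written 5′ to 3′ on the gene's own strand and ends within a few bases of the annotated start. Capitals mark matches on either strand to CAGAC for SMAD proteins, GGAATG for TEAD proteins, GGGCGG for the GC box, and the TATA box with the letters TATAAA. Searches for the AP-1 motif, TGANTCA, and for the CArG box found none in these 3 runs. The Tgfbi and Postn genes are on the plus strand and Thbs4 on the minus strand.
Tgfbi chr13:56609336-56609522: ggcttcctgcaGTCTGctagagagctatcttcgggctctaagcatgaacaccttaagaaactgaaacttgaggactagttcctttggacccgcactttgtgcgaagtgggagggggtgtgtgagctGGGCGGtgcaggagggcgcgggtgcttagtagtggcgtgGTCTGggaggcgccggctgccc
Postn chr3:54360857-54361106: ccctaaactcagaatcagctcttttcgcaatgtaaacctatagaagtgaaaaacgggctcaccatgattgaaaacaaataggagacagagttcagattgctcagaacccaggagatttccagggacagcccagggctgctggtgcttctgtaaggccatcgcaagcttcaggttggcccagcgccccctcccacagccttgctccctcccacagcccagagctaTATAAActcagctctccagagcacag
Thbs4 chr13:92794819-92795068: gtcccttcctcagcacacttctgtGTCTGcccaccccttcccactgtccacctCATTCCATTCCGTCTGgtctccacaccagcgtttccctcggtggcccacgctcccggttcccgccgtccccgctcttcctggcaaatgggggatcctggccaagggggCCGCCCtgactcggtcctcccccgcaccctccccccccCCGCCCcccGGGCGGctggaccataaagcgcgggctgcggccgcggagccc

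The Tgfbi run holds 2 matches to CAGAC, whose first bases lie 176 and 22 bases before the start, and a GC box at 61 bases. The Postn run has a TATA box 26 bases before its start and none of the other motifs. The Thbs4 run holds CAGAC at 226 and 186 bases, 3 GC boxes at 89, 51 and 42 bases, and 2 TEAD matches at 197 and 192 bases that share a single base. Of 10 members 8 had a promoter entry, read as the 250 bases before the RefSeq start nearest the annotated gene start. For Sparc that start lies inside the annotated gene. CAGAC was in 5 of these 8, against 42.2% of all 32851 promoters of that length. The GC box was in 4 (32.7% of all), TATAAA in 3 (12.4%), TGANTCA in 1, Tnxb (6.75%), GGAATG in 1, Thbs4 (12.6%), and the CArG box in 0 (1.47%). These are letter matches, not sites shown to be bound.

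Sparc (ENSMUSG00000018593, chromosome 11, 55394500 to 55423183) encodes a collagen-binding glycoprotein that takes part in the assembly of collagen fibrils. It was the most abundant of the 10 genes, with 13632, 15175 and 14182 CPM in GFP and 11190, 10480 and 10253 CPM in Tomato. The libraries of each fraction lay within a narrow range, and the ranges did not meet. Sparc rose by 0.43 ± 0.14 on the log2 scale (adjusted p = 0.0484), at the edge of the threshold. The call was lost without any single library (adjusted p from 0.0623 to 0.174), when libraries were scaled by their size alone (0.26, adjusted p = 0.145), with upper quartile scaling (adjusted p = 0.0651), with a filter of 1 CPM in 3 libraries (0.0509) and with either strand column (0.0540 and 0.0510). Library size scaling also shifted the median of all genes to -0.16, and relative to that median Sparc was at 0.43.

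Thrombospondins 1 and 2 assemble as trimers, bind CD36 and CD47 and restrain the growth of blood vessels. Thbs1 (ENSMUSG00000040152, chromosome 2, 118111876 to 118127133) had 4688, 3239 and 3309 CPM in GFP and 2607, 2068 and 1751 CPM in Tomato. All GFP libraries were above all Tomato libraries, with GFP replicate 1 the highest of the 6. Thbs1 rose by 0.81 ± 0.20 on the log2 scale (adjusted p = 0.0194). Leaving out GFP replicate 1 (0.61, adjusted p = 0.0709) or Tomato replicate 2 (0.78, adjusted p = 0.0780) ended the call.

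Thbs2 (ENSMUSG00000023885, chromosome 17, 14665500 to 14694235) had 950, 699 and 1168 CPM in GFP and 601, 560 and 574 CPM in Tomato. The Tomato libraries were nearly alike, and the spread was in GFP. Its log2 fold change was 0.70 ± 0.17 (adjusted p = 0.0195). That call was lost without GFP replicate 1 (adjusted p = 0.0634), GFP replicate 3 (0.51, 0.0566) or Tomato replicate 2 (0.0770), and with adjustment for length and GC (0.50, 0.0596).

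Thrombospondins 3 and 4 and COMP lack the region by which the trimers inhibit vessels, assemble as pentamers and are best known from cartilage, tendon and muscle. Thbs4 (ENSMUSG00000021702, chromosome 13, 92751590 to 92794818) had 59.7, 72.4 and 83.9 CPM in GFP and 24.5, 34.4 and 23.4 CPM in Tomato. Its lowest GFP library was above its highest Tomato library by a wide margin. Thbs4 rose by 1.39 ± 0.18 on the log2 scale (adjusted p = 0.00138), 2.62-fold, and the call held in all 12 settings and 6 fits without a library, with values from 1.23 to 1.59.

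Comp (ENSMUSG00000031849, chromosome 8, 70373558 to 70382066), which encodes a protein that guides collagen fibril assembly in cartilage, was rare in these cells. It had 109, 89 and 158 reads in GFP, against 45, 33 and 21 reads in Tomato. On the scaled measure these were 2.93, 2.66 and 4.45 CPM in GFP and 1.05, 0.849 and 0.570 CPM in Tomato. The log2 fold change of 2.01 ± 0.30 (adjusted p = 0.00252) stood on these few reads, and its call held in the same 12 settings and 6 fits, with values from 1.76 to 2.22. Of all genes tested, 71 rose by more.

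Thbs3 (ENSMUSG00000028047, chromosome 3, 89215180 to 89226837) had 255, 216 and 196 CPM in GFP and 166, 116 and 78.3 CPM in Tomato. All GFP libraries were above the Tomato libraries, which spread widely among themselves. Its log2 fold change was 0.88 ± 0.26 (adjusted p = 0.0401). That call was lost without GFP replicate 1, 2 or 3 or Tomato replicate 2 (adjusted p up to 0.0927), without a filter on low counts (0.179) and with adjustment for length and GC (0.0623). Thbs3 shares 318 exon bases, 6.6% of its exons, with Mtx1 on the other strand, and its 2 strand columns together held 1.16 times the reads of the column for both strands. Its level is therefore less certain than those of its relatives.

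Tenascin C appears in wounds and tumours, binds fibronectin and integrins and lowers cell adhesion. Tnc (ENSMUSG00000028364, chromosome 4, 63959785 to 64047015) had 1110, 688 and 1392 CPM in GFP and 453, 488 and 539 CPM in Tomato. GFP replicate 2 was far below the other GFP libraries, yet it was above all Tomato libraries. Tnc rose by 1.11 ± 0.23 on the log2 scale (adjusted p = 0.0114), and the call held in the 12 settings and the 6 fits without a library (largest adjusted p = 0.0496).

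Tenascin X organises collagen in loose connective tissue and, unlike tenascin C, belongs to resting tissue. Tnxb (ENSMUSG00000033327, chromosome 17, 34670535 to 34719815) had 339, 323 and 190 CPM in GFP and 177, 119 and 63.2 CPM in Tomato. Here GFP replicate 3 lay just above Tomato replicate 1. Tnxb rose by 1.24 ± 0.38 on the log2 scale (adjusted p = 0.0475). The call was lost without GFP replicate 1, GFP replicate 2, Tomato replicate 2 or Tomato replicate 3 (adjusted p up to 0.106). It was also lost with upper quartile scaling (0.0673), library size scaling (0.0680), no filter (0.218), a single strand column (0.0641) and the length and GC correction, where the log2 fold change was 0.74 (adjusted p = 0.157). With the block its fold change was 1.32 (adjusted p = 0.000130).

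**Figure D3:**
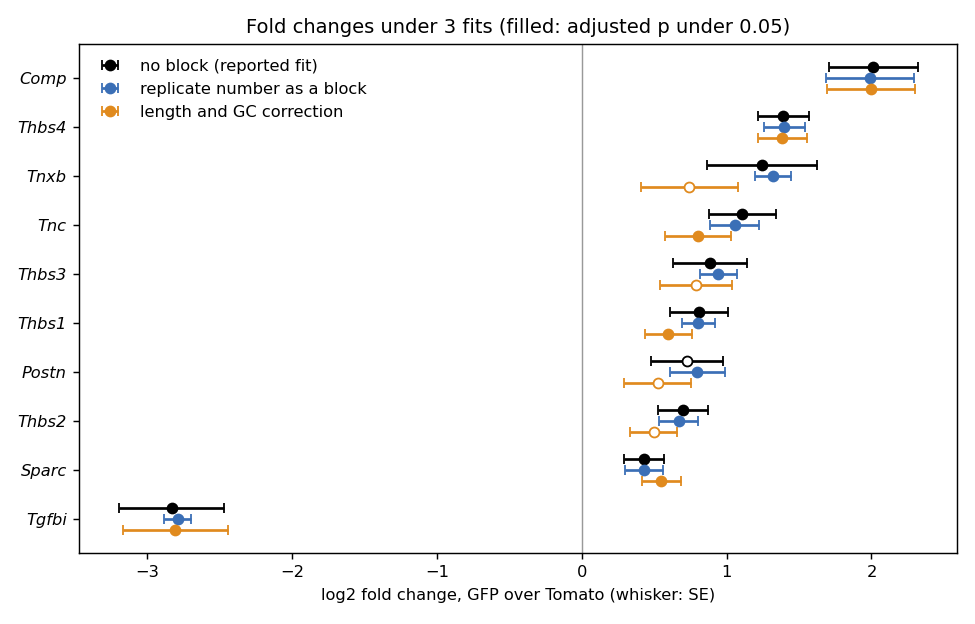
Log2 fold changes (x axis, GFP over Tomato, whiskers SE) of the 10 genes (y axis) under the fit without a block, with the replicate number as a block, and after the length and GC correction; filled points have an adjusted p under 0.05. Comp, Thbs4, Tnc, Thbs1, Sparc and Tgfbi are filled in all 3 fits, whereas Tnxb, Thbs3 and Thbs2 are open after the correction and Postn is filled with the block alone.

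Levels of different genes were compared as CPM per kilobase (kb) of merged exons. In GFP the order ran from Sparc (3783 ± 206 CPM per kb) through Thbs1 (617 ± 135), Postn (259 ± 12.5), Tnc (137 ± 45.5), Thbs2 (134 ± 33.5), Thbs3 (46.1 ± 6.26), Tnxb (23.3 ± 6.68), Thbs4 (21.9 ± 3.68) and Tgfbi (6.25 ± 1.93) to Comp (1.13 ± 0.326). In Tomato the first 3 were again Sparc (2809 ± 129), Thbs1 (353 ± 71.3) and Postn (157 ± 57.8), and Comp (0.277 ± 0.0812) was again last. Tgfbi was sixth there at 44.4 ± 18.9 CPM per kb, next to Tnc (63.5 ± 5.56) and Thbs3 (25.0 ± 9.17). Neighbours whose libraries overlapped were Tnc and Thbs2, and Tnxb and Thbs4, in GFP, and Tnc and Tgfbi, Tgfbi and Thbs3, and Tnxb and Thbs4 in Tomato. Among 13904 protein-coding genes, Sparc ranked 3 by level per length in GFP and 4 in Tomato, and Tgfbi ranked 5292 in GFP and 1072 in Tomato. Reads of the 10 genes made up 2.13% to 2.20% of all reads in GFP and 1.58% to 1.75% in Tomato, most of them from Sparc.

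**Figure D4:**
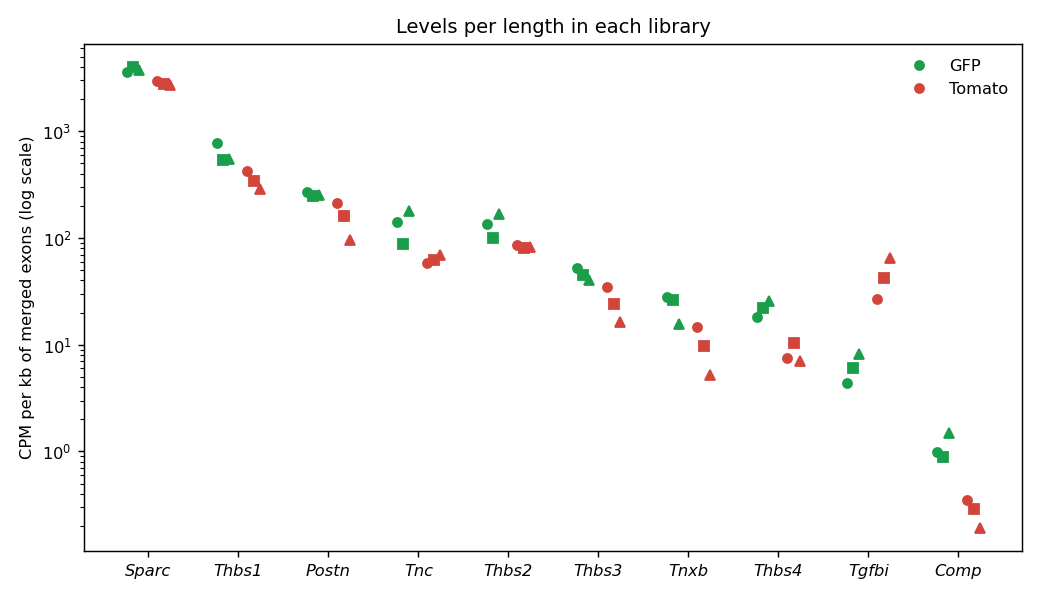
Level of each gene in each library as CPM per kb of merged exons (y axis, log scale), GFP in green at left and Tomato in red, with the replicate number as circle, square or triangle. Sparc lies near 3783 CPM per kb in GFP and Comp near 1.13, and Tgfbi is the gene whose Tomato points lie above its GFP points.

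Ratios between relatives were taken within each library, where scaling cancels, and compared by an exact two-sided permutation test, in which 3 libraries against 3 cannot give a p below 0.1. Postn exceeded Tgfbi by 5.42 ± 0.51 on the log2 scale in GFP and 1.83 ± 1.20 in Tomato (SD, n = 3 each). That difference of 3.59 had the smallest p possible (exact permutation p = 0.1, 0.5 adjusted over 5 ratios), with all GFP libraries above all Tomato libraries. For the other 4 ratios the fractions overlapped. Thbs1 over Thbs2 was 2.21 ± 0.44 in GFP and 2.08 ± 0.25 in Tomato (exact permutation p = 0.7). Tnc over Tnxb was 2.54 ± 0.90 and 2.81 ± 0.88 in GFP and Tomato (exact permutation p = 0.7), and its spread within a fraction was larger than the difference. Comp over Thbs4 was -4.30 ± 0.28 in GFP and -4.93 ± 0.46 in Tomato (exact permutation p = 0.2), and Thbs4 over Thbs3 was -1.08 ± 0.44 in GFP and -1.54 ± 0.59 in Tomato (exact permutation p = 0.4). Both were higher in GFP at all 3 replicate numbers, where the smallest exact permutation p for 3 pairs is 0.25.

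**Figure D5:**
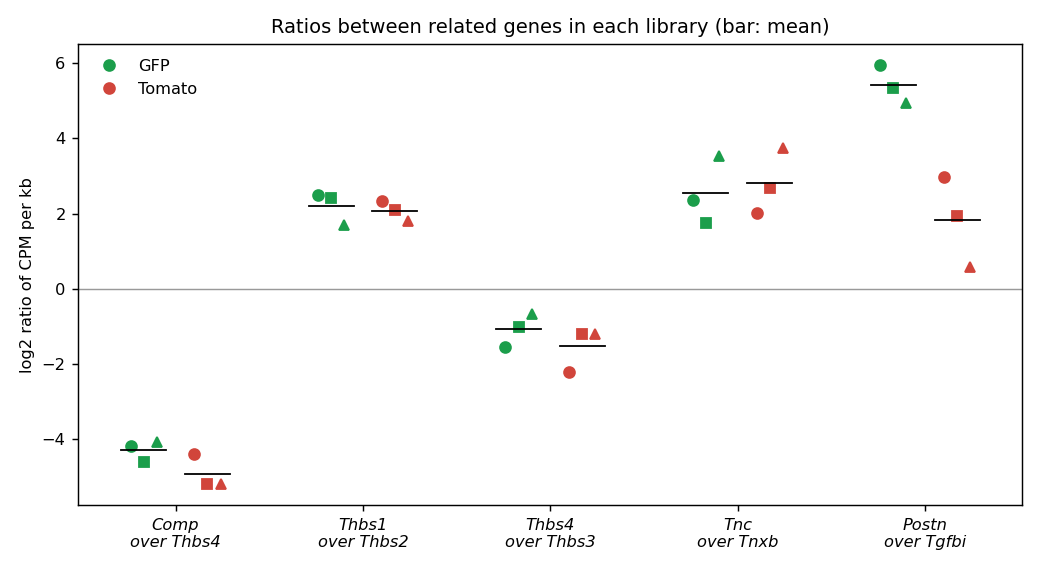
Log2 ratio of CPM per kb (y axis) for 5 ratios of related genes in each library, GFP in green at left and Tomato in red, with bars at the means and the replicate number as circle, square or triangle. Postn over Tgfbi is separate between the fractions, at means of 5.42 in GFP and 1.83 in Tomato, and the other 4 ratios overlap.

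Each gene was also set against the summed fibroblast markers of its library, a measure chosen after the data were seen. Of the 11 markers 6 were higher in GFP: Col1a1, Col1a2, Col3a1, Pdgfra (0.43), Pdgfrb (0.80) and Thy1 (0.52). None was lower, and Dcn (-0.10, adjusted p = 0.695), Pdpn (-0.10, adjusted p = 0.481), Lum, Fap and Vim did not pass. The sum of all 11 differed by 0.79 on the log2 scale. With all 11 markers, whose sum is mostly collagen I and III, 8 of the 10 genes overlapped between the fractions; 77.3% of all genes tested did not overlap on this measure. Comp was higher in every GFP library (log2 difference 1.24) and Tgfbi lower (-3.58). Postn stood at 16.4, 16.7 and 16.6 per 1000 CPM of markers in GFP and at 19.1, 17.9 and 13.2 in Tomato, a log2 difference of 0.01. Thbs1 likewise stood at 32.4, 24.9 and 24.7 in GFP and 27.0, 26.2 and 27.5 in Tomato (log2 difference 0.01). The sum of the 8 markers that are not collagens was mostly Dcn (mean 7750 CPM in GFP, 8306 in Tomato) and Lum (3677, 2985). It differed by 0.06 on the log2 scale. Against this sum 7 genes were higher in every GFP library, 1 was lower, and Tnc and Thbs2 overlapped. Of all genes tested, 31.8% did not overlap here. Between libraries of equal replicate number, Tnxb, Thbs3, Thbs4 and Comp were higher in GFP at all 3 numbers against the 11 markers, Tgfbi and Sparc were lower at all 3, and the other 4 genes were mixed. Against the 8 markers all genes but Tgfbi were higher in GFP at all 3 numbers.

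Other genes of the same kinds were read from the same fit. In it 13.1% of all genes tested were higher in GFP and 15.7% lower, with a median log2 fold change of 0.00. Of 27 relatives, 23 were tested, 7 were higher in GFP and 3 lower, with a median log2 fold change of 0.48. Sparcl1, the closest kin of Sparc, was higher (384 ± 66.3 against 220 ± 28.4 CPM, 0.80, adjusted p = 0.00606). Edil3, an integrin ligand of vessels, was higher too at a low level (3.97 ± 1.05 against 1.45 ± 0.187 CPM, log2 fold change 1.45, adjusted p = 0.00383). Spock3, a testican (0.414 ± 0.203 CPM in GFP and 9.24 ± 5.76 CPM in Tomato, adjusted p = 0.00335), and Matn4, a matrilin (0.681 ± 0.167 against 5.47 ± 1.31 CPM, -3.00, adjusted p = 0.000249), were lower. The tenascin gene Tnn rose by 1.56 (adjusted p = 0.0161), and the other 4 that rose were Ccn1, Ccn2, Fstl1 and Spon1; these 5 and Spock2 (-1.61), the third that fell, were picked once their values were known. With the block 11 relatives were higher.

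Of 22 receptors and binding partners at the cell surface, 9 were higher and 4 lower (median 0.18), beside 13.1% and 15.7% of all genes tested. Itga9, the integrin chain that binds tenascin C (110 ± 12.8 against 61.5 ± 3.98 CPM, 0.84, adjusted p = 0.00126), and Stab1, the scavenger receptor that takes up SPARC (46.6 ± 12.4 against 15.7 ± 2.01 CPM, 1.57, adjusted p = 0.00106), were higher. Itga3, an integrin chain common in epithelia (4.71 ± 0.459 against 20.4 ± 1.20 CPM, -2.11, adjusted p = 3.44e-05), and Sdc4, a syndecan (310 ± 33.8 against 498 ± 42.8 CPM, -0.68, adjusted p = 0.00417), were lower. The thrombospondin receptor gene Cd47 had 370 ± 58.3 CPM in GFP, against 344 ± 34.4 CPM in Tomato (0.11, adjusted p = 0.565), and Cd36 had 5.72 ± 3.39 and 8.59 ± 3.08 CPM (-0.59, adjusted p = 0.348). The periostin receptor chains Itgav (0.42, adjusted p = 0.0361), Itgb3 (0.56, adjusted p = 0.0156) and Itgb5 (0.56, adjusted p = 0.00341) were higher. Among the integrin chains not yet named, Itga5 (652 against 412 CPM, 0.66) and, at a low level, Itga8 (2.18 against 0.956 CPM, 1.19) were higher. Itgb6 (0.246 against 0.534 CPM, -1.11) and Itga4 (0.403 against 1.05 CPM, -1.37) were lower, also at low levels. Itgb1 (0.19) and Itgb8 (-0.73) were not called. These chains and the CD genes were picked once their values were known. Stab1 and Edil3 are also made by endothelium, whose markers were higher in GFP in the same libraries. Itga3 is also made by epithelium, whose markers were lower, as were the 9 macrophage markers. The part of any of those cells in these values was not tested. With the block 7 of the receptors were lower.

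Of 21 matrix partners, 16 were higher and none lower, with a median log2 fold change of 0.80. Beside this and the next lists, 13.1% of all genes tested were higher and 15.7% lower, with a median of 0.00. Col5a1, which sets the width of collagen fibrils, had 2628 ± 72.0 CPM in GFP, against 1298 ± 238 CPM in Tomato (1.02, adjusted p = 0.00224). Col12a1, a collagen that coats fibrils, was at 278 ± 19.8 and 146 ± 13.9 CPM in GFP and Tomato. Of 17 TGF-beta pathway genes 8 were higher and 1 lower (median 0.50), and 13 were higher with the block. Ltbp2, a fibrillin-bound protein, rose by 1.12 on the log2 scale (125 ± 30.2 against 57.8 ± 2.29 CPM, adjusted p = 0.00200). Nrros, which anchors latent TGF-beta on macrophages, was lower (2.38 ± 0.276 against 9.95 ± 3.73 CPM, adjusted p = 0.00174). Of 24 regulators of transcription and their upstream receptors, 9 were higher and 2 lower (median 0.34), and 13 and 3 with the block. Prrx1, a mesenchymal transcription factor (0.78, adjusted p = 0.00525), and Mrtfb, a cofactor of serum response factor (0.69, adjusted p = 0.00651), were higher. Ets2 (-0.36, adjusted p = 0.0308) and Il13ra1, a chain of the interleukin-13 receptor (-0.33, adjusted p = 0.0251), were lower.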

How the data were processed

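The authors deposited raw read counts per gene for each library, unstranded and for either strand separately (stated in the file headers). The submitters' processing notes list Trim Galore 0.4.3, STAR 2.5.2b and GRCm38; roles and the annotation release are not given in the sources used here. Per the labels' protocols, 150 ng RNA went into each TruSeq library. The unstranded column was used, because the strand columns were nearly equal (ratio 1.002 to 1.006), so reads of overlapping genes on opposite strands cannot be told apart. Of 49671 genes, 49412 matched GENCODE M21 (GRCm38), which gave names, coordinates (1-based) and merged exon lengths; the 259 others held 0.00762% of counts.

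GFP was compared with Tomato by edgeR 4.0.16 in R 4.3.3 (quasi-likelihood F test, two-sided, robust, TMM scaling, filterByExpr, no block), with Benjamini-Hochberg adjustment over 15608 genes and a threshold of 0.05. SE is the fold change over the square root of F, and CPM are TMM-scaled, as mean ± SD. The test was checked on counts simulated with a single dispersion for all genes and no pairing, a simpler setting than these data. The labels do not say whether replicates were separate animals, so p-values reflect spread among samples that may be technical. No libraries were duplicates (chi-square per degree of freedom at least 28.0). Equal replicate numbers deviated together (correlations 0.403, 0.108 and 0.347, each above the limit of 0.1). The labels do not state pairing, so the reported fit and the fits without a library had no block and ignore any pairing. A fit with the replicate number as a block was run as an alternative. It is given where it changes a member's call or moves a list's count by over 1.5 times. Alternatives were other scalings and filters, DESeq2 1.42.0, limma-voom (limma 3.58.1), a block, single strand columns, a length and GC correction (splines with 4 degrees of freedom, from the longest transcript, as no genome was used) and leaving out each library.

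The members and lists were chosen with earlier results of these data known. Named beside the members were, in each list, the 2 genes up and 2 down with the smallest adjusted p among those called, and for each member called the 2 protein-coding genes of at least 10 CPM with the highest Pearson correlation to it; exceptions are marked, and 1 gene that the rule names is not reported here. Promoters were RefSeq's.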

Additional observations from a re-analysis of the deposited data

How the results depend on the processing

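In 12 alternative settings and 6 fits without a library, none of the 10 fold changes reversed, and Tgfbi was the 1 member called lower in each. The number called higher was 8 in the reported fit, 5 after the length and GC correction, and 3 to 8 when a library was left out; with upper quartile scaling, library size scaling, no filter or the fwd strand column it was 6, and with DESeq2, limma-voom or the replicate block 9. The reported fit called 2049 genes up and 2456 down. Scaling by library size alone gave 1128 and 3851, where 22.7% of the calls were higher instead of 45.5%; with the replicate block 3137 and 3256; and without a library 833 to 2392 and 1380 to 2793. In the lists, the replicate block gave 11 relatives higher (7 without it), 7 receptors lower (4) and 13 TGF-beta pathway genes higher (8); by less, 13 regulators were higher (9) and 3 lower (2), 4 relatives lower (3), 10 receptors higher (9) and 17 matrix partners higher (16). Paired by replicate number, the difference in Postn over Tgfbi was 3.59 ± 0.71 (SD, 3 pairs; exact permutation p = 0.25, the smallest possible). When a library was left out, that difference ran from 2.96 to 4.16, Thbs1 over Thbs2 from -0.013 (without GFP replicate 1) to 0.39, and Tnc over Tnxb from -0.76 to 0.20 (0.13 without GFP replicate 2, 0.20 without Tomato replicate 3), so those 2 have no stable sign. Comp over Thbs4 ran from 0.49 to 0.90, and Thbs4 over Thbs3, 0.46 with all libraries, from 0.12 (without Tomato replicate 1) to 0.69, with 0.25 without GFP replicate 3. Against the fibroblast markers without collagens, Thbs2 was at 0.61 and Sparc at 0.37, where all 11 markers gave -0.12 and -0.36. With the longest transcript in place of merged exons, 8 of 10 genes kept their place in the order of levels in GFP and 10 in Tomato. The cause of these changes was not tested; leaving out a library also lowers the number of samples. Counts limit Comp, at 21 to 158 reads per library.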

Other observations

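Comp and Thbs4 are best known from tendon and cartilage, so other genes of those tissues were looked at. Of 16 such genes 12 were tested, 3 were higher in GFP and 2 lower, with a median log2 fold change of 0.22, and 8 were under 1 CPM in every library. Among all genes tested, 13.1% were higher and 15.7% lower. Cilp, a cartilage intermediate layer protein gene also made by fibroblasts, was abundant and higher (979 ± 57.2 CPM in GFP and 409 ± 118 CPM in Tomato, 1.26, adjusted p = 0.00323). Hapln1, which links hyaluronan to proteoglycans, was higher at about 1 CPM (1.08 ± 0.625 in GFP, against 0.214 ± 0.117 in Tomato; adjusted p = 0.0157). Prg4, the lubricin gene (23.2 ± 2.73 against 55.3 ± 14.3 CPM, -1.25, adjusted p = 0.00327), and Cilp2 (0.217 ± 0.00834 against 0.641 ± 0.118 CPM, adjusted p = 0.0109) were lower. The tendon factor Scx had 0.878 ± 0.418 CPM in GFP, against 1.55 ± 0.686 CPM in Tomato, and did not pass (adjusted p = 0.197), and Mkx (1.38 and 1.26 CPM in GFP and Tomato) did not either (adjusted p = 0.847); both were named after their values were seen. The third gene that rose was Col11a1 (1.03, adjusted p = 0.0181), also named after its value was seen.

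For each member that passed, the protein-coding genes with the most similar profile over the 6 libraries were listed from 8903 candidates; the profile mostly follows the difference between the fractions, so these are descriptions with no test. Nearest to Tgfbi were Cd14 (Pearson r = 0.999), a macrophage coreceptor that fell by 3.32 on the log2 scale, and Fcgr2b, an Fc receptor gene that fell by 3.12. Nearest to Comp were Adam19 (r = 0.999) and Itga1 (r = 0.998), and nearest to Thbs4 were Fut4 (r = 0.996) and Ganab (r = 0.995). Tnc was matched by Uso1 and Tbc1d8 (both r = 0.996), Tnxb by Medag (r = 0.9997) and Cic (r = 0.998), and Thbs1 by Zfp592 (r = 0.999) and Camta2 (r = 0.999). Thbs2 was matched by Atp6v0a2 (r = 0.994) and Slc11a2 (r = 0.992), Thbs3 by Csf1 (r = 0.999) and Abcc5 (r = 0.998), and Sparc by Setd5 (r = 0.997) and Dbn1 (r = 0.996).

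Platelets store thrombospondin 1. Of 5 platelet and megakaryocyte markers 3 were tested and 2, Pf4 and Ppbp, were lower in GFP, with a summed level of 6.57 to 11.6 CPM in GFP and 18.4 to 40.1 CPM in Tomato. The part of platelets in the values of Thbs1 was not tested.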
